A study of Mus musculus with 12 samples.

Results

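The nuclear-encoded subunits of the mitochondrial respiratory chain and of ATP synthase were studied in cultured macrophages and fibroblasts. Members were the genes whose symbols begin with the series names of complexes I to V (Nduf, Sdh, Uqcr, Cox and Atp5), without symbols marked as pseudogenes by -ps. Of 84 such symbols among the 32544 genes of the table, 79 had at least 10 counts in 3 or more of the 12 libraries. These were 36 genes of complex I, 4 of complex II, 8 of complex III, 14 of complex IV and 17 of complex V, and all 79 were also among the 14285 genes tested. The other 5, Cox4i2, Cox7b2, Cox8b, Cox8c and Ndufa4l2, had at most 6 counts in any library.

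Polyadenylated RNA had been sequenced from 4 groups of 3 libraries. Bone marrow-derived macrophages (BMDMs) came from mice labelled PHD2_WT and named WT here, or from mice labelled PHD2_KO and named PHD2cko, which carry the conditional knockout of PHD2. Both groups carried the same Cre, driven by the lysozyme M promoter, which is active in myeloid cells. RNA of BMDMs was taken 24 h after seeding. The other 2 groups were 3T3 cells, a mouse embryonic fibroblast line, kept for 72 h in medium conditioned by WT or by PHD2cko BMDMs. The ages of the mice and the oxygen condition of the sequenced cultures are not given in the sources used here, nor is it said that the 3 libraries of a group came from separate animals, so p-values measure the spread between these libraries, which may be technical.

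The respiratory chain passes electrons from NADH (complex I) and succinate (complex II) through complex III to oxygen at complex IV, and complex V makes ATP from the proton gradient. Complexes I, III, IV and V each combine subunits encoded in the nucleus with subunits encoded in mitochondrial DNA, whereas complex II is wholly nuclear and is also an enzyme of the tricarboxylic acid cycle. PHD2 is an oxygen-dependent hydroxylase that marks the hypoxia-inducible factors (HIF) for degradation. HIF is known to lower the use of oxygen by mitochondria through targets such as Pdk1, and to induce alternative isoforms of some subunits, Cox4i2 and Ndufa4l2 among them.

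Library totals ran from 15516465 to 25199770 counts. Egln1, the gene of PHD2, was at 54.7 to 55.8 CPM (counts scaled to a common library size) in WT BMDMs. It was at 68.3 to 71.6 CPM in the libraries labelled PHD2cko, higher and not lower. The deposited counts hold no values per exon that could show a deleted part. The authors separately present PHD2 mRNA of PHD2cko BMDMs as their check of the knockdown, and report raised protein of the HIF subunit HIF1α in such cells. Of 23 macrophage markers, 0 were at 0 in any BMDM library, and the 12 fibroblast markers summed to 3.3 to 8.28 CPM there, against at least 29400 CPM in 3T3. Macrophage markers were present in 3T3 in PHD2cko medium at 2.31, 0.516 and 2.06% of their BMDM level, against 0.0485 to 0.0525% in WT medium. One library of 3T3 stood far apart from its group. The chi-square of the counts of replicate 1 of 3T3 in WT medium, divided by its degrees of freedom, was 24.6 against replicate 2 and 26.2 against replicate 3, and 2.34 between the latter. In the other groups the values ran from 1.97 to 8.13, the highest for replicate 3 labelled PHD2cko in BMDMs (8.13 and 7.14 against replicates 1 and 2). The comparisons of members are therefore given with and without replicate 1 of 3T3 in WT medium.

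Near-identical copies elsewhere in the genome limited what could be said of some members, and the sequences below show this for Ndufa12, the complex I gene with the largest difference between BMDM labels among members past the threshold. Ndufa12 (ENSMUSG00000020022.17) lies on chromosome 10 of GRCm38 from 94198720 to 94221443 on the plus strand. Its copy Gm15920, annotated as a processed pseudogene, lies on chromosome 5 from 130188395 to 130188796 on the plus strand. Aligned without gaps, the 402 bases of Gm15920 differed from the principal transcript of Ndufa12 at 2 bases (99.5% identical), and 316 of its 372 stretches of 31 bases, the length usual for matching reads to transcripts, were also found there. The lines below give 81 bases of each around 1 of these differences, which is in capitals. They cover positions 185 to 265 of the Ndufa12 transcript, within its coding part, and chr5:130188453-130188533 for Gm15920.
Ndufa12: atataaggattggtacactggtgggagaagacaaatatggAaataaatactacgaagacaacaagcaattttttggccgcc
Gm15920: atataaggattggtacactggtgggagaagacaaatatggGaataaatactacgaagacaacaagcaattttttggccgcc
A read from such a stretch can be told apart only if it covers the base in capitals. Counted over all its annotated transcripts, Ndufa12 shared 20.2% of its own stretches of 31 bases with Gm15920. For other members, 18 further copies annotated as pseudogenes shared at least 50% of their own stretches of 31 bases with the member, but most were at or near 0. Copies with substantial counts were Gm10175 for Atp5g2 (1188 to 2099 counts, 100% shared), BC002163 for Ndufs5 (42 to 203 counts, 81% shared) and Gm6969 for Cox7a2l, which had 1 to 4 counts in BMDMs and 375 to 554 in 3T3.

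Members took up a nearly constant part of the macrophage RNA. Their summed counts were 0.548, 0.553 and 0.558% of all counts in WT BMDMs and 0.566, 0.55 and 0.536% in BMDMs labelled PHD2cko, so the groups overlapped. In 3T3 they were 0.885, 0.732 and 0.718% in WT medium and 0.739, 0.716 and 0.732% in PHD2cko medium. Replicate 1 in WT medium was the only 3T3 library outside the range of 0.716 to 0.739%. The same library was the highest of its group for each of the 5 complexes, as the plot of the share of counts by complex shows. A share of counts is relative, so fewer cells with much of a transcript and less of it in each cell cannot be told apart in these bulk samples.

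**Figure D1:**
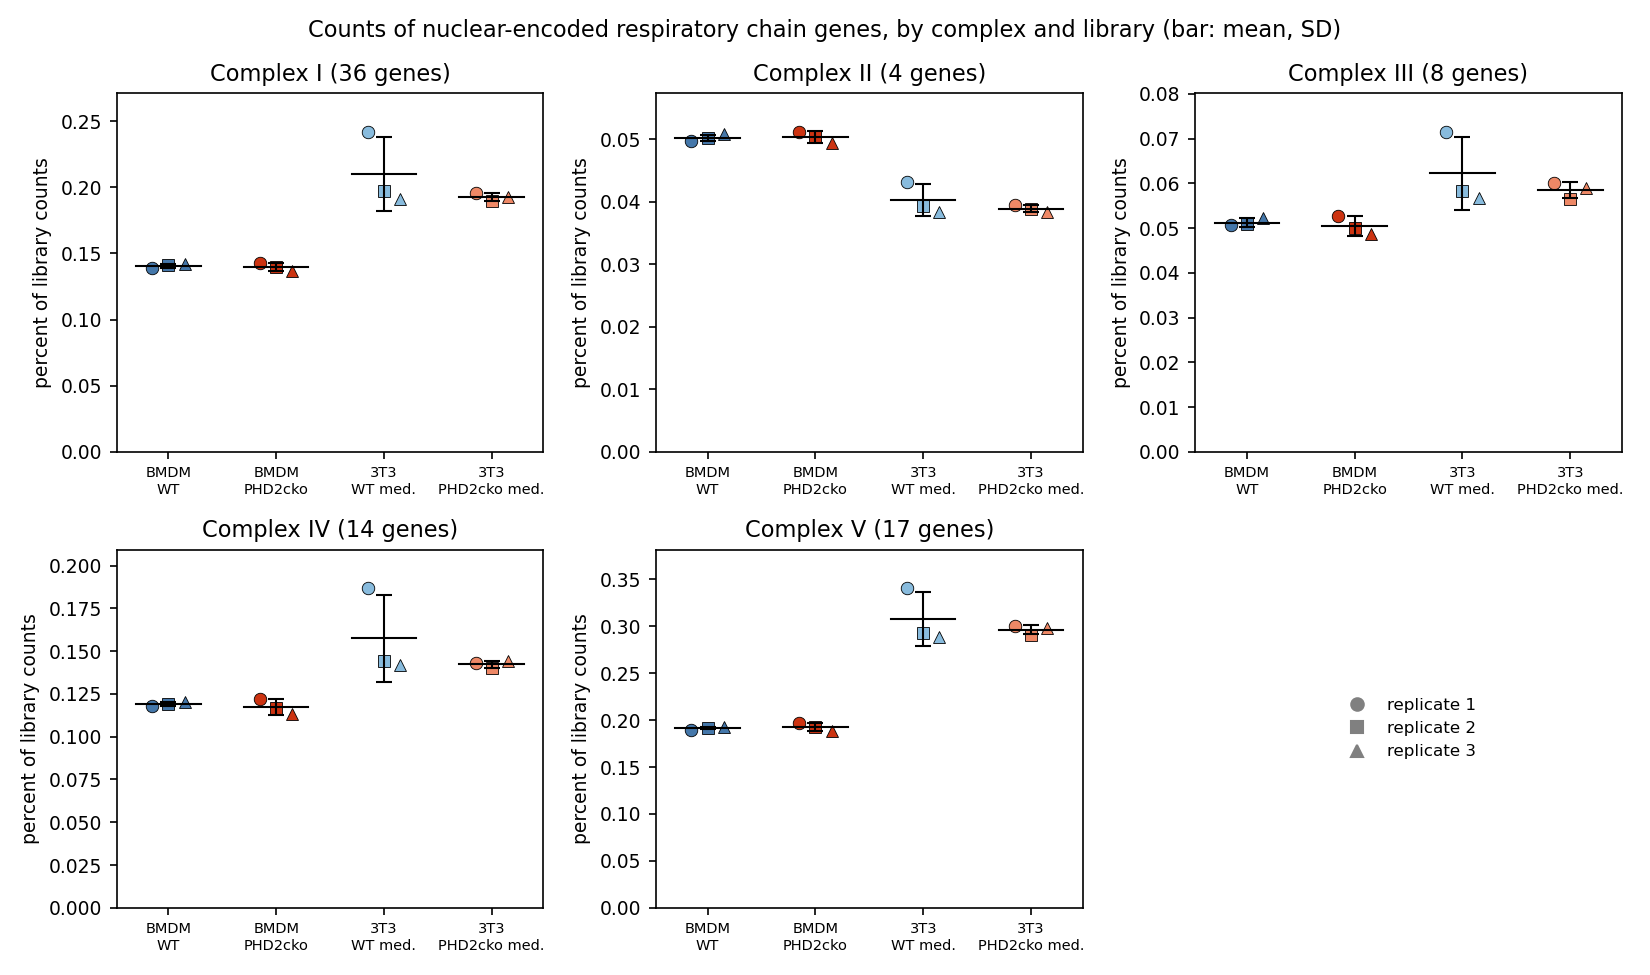
Percent of a library's counts (vertical axis) from the nuclear-encoded genes of each complex, in the 4 groups (horizontal axis), with 1 point per library, its shape marking the replicate number, and bars for the mean and SD of 3 libraries. BMDM groups sit close together for every complex, complex II is higher in BMDMs than in 3T3, and replicate 1 in WT medium lies above the other 3T3 libraries.

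The comparison of BMDM labels asks whether macrophages from PHD2cko mice carried other levels of respiratory chain transcripts. Most members did not differ detectably. Of 79, 2 were higher (2.53%) and 0 were lower at an adjusted p under 0.05 by edgeR's quasi-likelihood test, where 3.38% of all genes tested were higher and 3.35% lower (6.73% in either direction). At an unadjusted p under 0.05, 3 members were higher and 4 lower, beside 10 and 9.01% of all genes, and DESeq2 called 1 lower, beside 4.19%. Without replicate 1 of 3T3 in WT medium the unadjusted counts were 5 and 9, beside 13.2 and 12.6%. The log2 fold changes lay between -0.32 and 0.99, with 36 above and 43 below 0, where 50% of all genes were above and 47.7% below. Their median was -0.029 for complex I, -0.00041 for complex II, -0.040 for complex III, -0.0075 for complex IV and 0.024 for complex V, beside 0.00022 over all genes. The 17 genes counted in complex V by symbol, which include the catalytic subunits Atp5a1 and Atp5b, kept within -0.097 and 0.11. The upper value was that of Atp5sl, which is known for the assembly of complex I. Groups did not overlap in 6 members that were higher and 11 that were lower, beside 16.3 and 15.6% of all genes. With 3 libraries against 3, an exact permutation test of a single gene cannot give a two-sided p under 0.1.

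Both genes that rose in BMDMs belong to complex I. Ndufv3 encodes an accessory subunit of the module that oxidizes NADH. It was at 42.2, 42.4 and 44.2 CPM in WT BMDMs and at 52.7, 51.4 and 53.6 CPM in BMDMs labelled PHD2cko, with no overlap between the groups. Its log2 fold change was 0.29 (standard error, SE, 0.0662, adjusted p = 0.0183), a fold of 1.22. The increase stayed between 0.28 and 0.31 with each library left out in turn, but its adjusted p rose above the threshold without WT replicate 1 (0.0838) or 2 (0.0732), or without replicate 1 (0.0682) or 3 (0.0746) labelled PHD2cko. Ndufv3 (ENSMUSG00000024038.17) lies on chromosome 17 of GRCm38 from 31520115 to 31531331 on the plus strand, and 0 of the 18 genes tested within 1 Mb of it passed the threshold.

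Ndufa12, an accessory subunit of complex I, showed the largest change among the members past the threshold. It was at 11.2, 9.26 and 10.8 CPM in WT BMDMs and at 19, 16.5 and 18.3 CPM in BMDMs labelled PHD2cko. Its log2 fold change was 0.79 (SE 0.0971, adjusted p = 0.000274), and the increase stayed past the threshold without any 1 of the 12 libraries. The copy shown above moved the other way. Gm15920 had 232, 294 and 257 counts in WT BMDMs and 184, 185 and 217 in BMDMs labelled PHD2cko, a log2 fold change of -0.47 (SE 0.122, adjusted p = 0.0388). The sum of Ndufa12 and Gm15920 was 26.2, 27.1 and 26.5 CPM in WT and 30.2, 29.1 and 29.7 CPM in BMDMs labelled PHD2cko. With each copy added to its gene, the log2 fold change of Ndufa12 was 0.16 and did not pass the threshold (adjusted p = 0.373). Its level alone is thus uncertain here, and the part that the division of reads between gene and copy had in its increase was not tested. Of 15 other genes tested within 1 Mb, Amdhd1, Fgd6 and Hal passed the threshold.

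**Figure D2:**
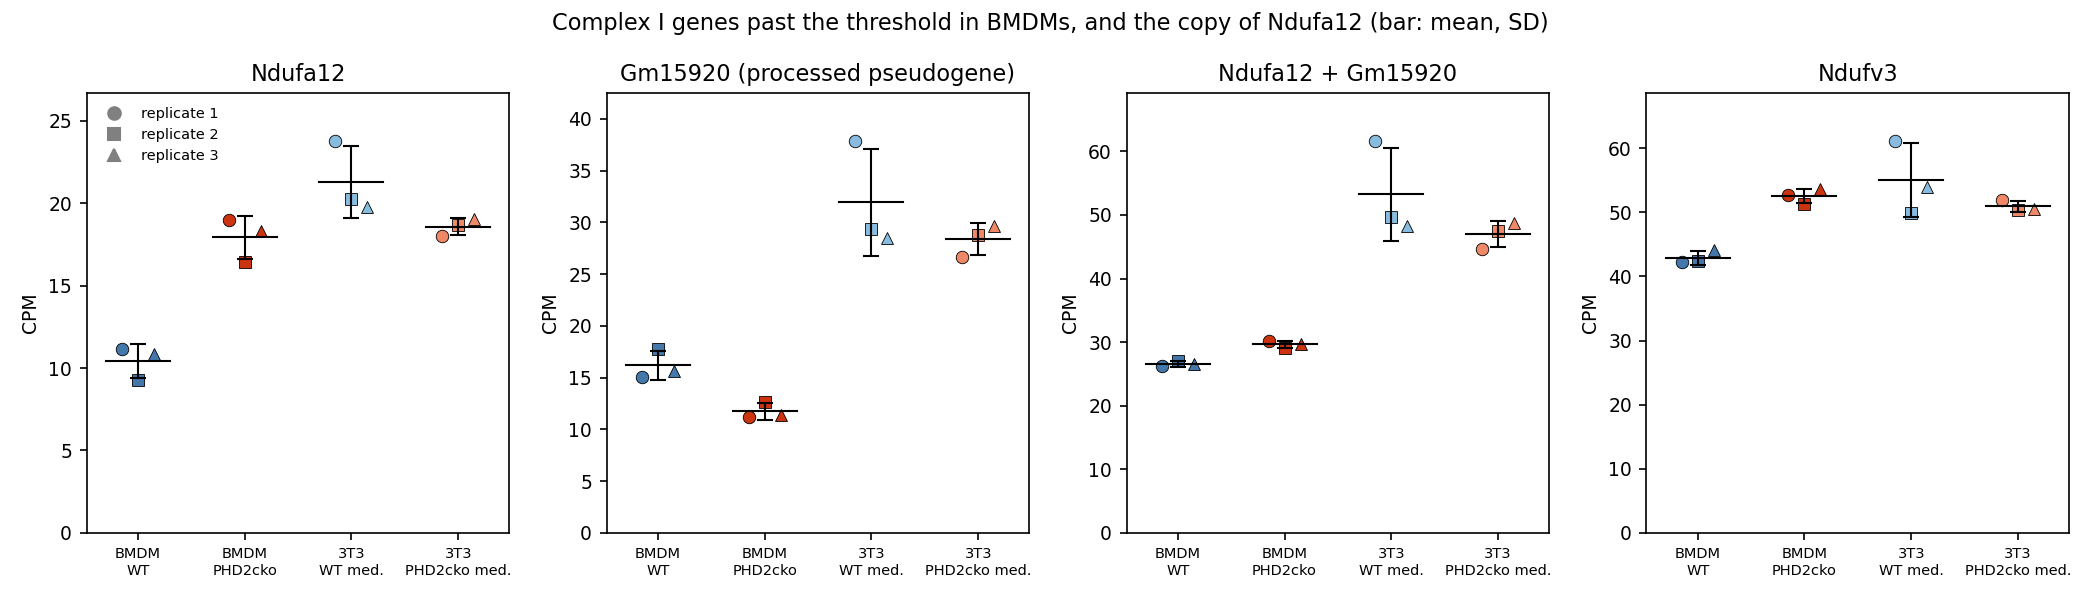
CPM (vertical axis, from 0) of Ndufa12, of its copy Gm15920, of their sum and of Ndufv3 in the 4 groups, with 1 point per library and bars for the mean and SD of 3 libraries. In BMDMs Ndufa12 is higher and Gm15920 lower in the libraries labelled PHD2cko, and their sum goes from 26.2 to 27.1 CPM in WT to 29.1 to 30.2 CPM.

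Among members below the threshold in BMDMs, Cox5a, a subunit of cytochrome c oxidase, was at 98.7, 97.5 and 97.6 CPM in WT and at 83.8, 81.3 and 73.8 CPM in BMDMs labelled PHD2cko, without overlap, and its log2 fold change of -0.30 had an adjusted p of 0.0707. Ndufa4, named after complex I but known as a subunit of complex IV, was at 55.4, 55.2 and 57.9 against 50.6, 46.3 and 47.2 CPM (log2 fold change -0.23, adjusted p = 0.229). Without replicate 1 of 3T3 in WT medium, whose spread enters the estimate shared by all groups, Cox5a (adjusted p = 0.0036), Ndufa4 (0.00458), Ndufs8 (0.0394) and Ndufa13 (0.0342) passed as lower. Cox6b1 (0.0294) then passed as higher beside Ndufa12 and Ndufv3. Of the 79 members, 3 higher and 4 lower are to be read against 6.35% of all genes higher and 6.69% lower in that fit.

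Genes linked to HIF that act on mitochondria were compared in the same libraries. Of 10 tested, 5 rose and 0 fell, beside 3.38 and 3.35% of all genes. The other 5 did not pass, among them Iscu, which HIF is known to lower and not to induce. Pdk1, the kinase that inhibits pyruvate dehydrogenase, had a log2 fold change of 0.96 (adjusted p = 4.83e-08), and Bnip3, a receptor for the removal of mitochondria, one of 0.85. Ldha, Mxi1 and Bnip3l rose by 0.56, 0.33 and 0.25. The isoforms known to be induced by HIF were below the count minimum for members. Cox4i2 had 0 or 1 count in each of the 12 libraries, and Ndufa4l2 had 0 to 6, where 3 counts are at most 0.188 CPM in any BMDM library. Their constitutive partners Cox4i1 and Ndufa4 had log2 fold changes of -0.087 (adjusted p = 0.704) and -0.23.

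Letters that fit a HIF binding site were frequent in the promoters of members. RefSeq (GRCm38.p6) gave a start site for 69 of the 84 symbols, and the 250 bases before it held ACGTG or GCGTG on either strand in 53.6% of members and 38.6% of 27025 promoters of all genes. The consensus site of NRF1, a regulator of respiratory genes, was in 17.4% of members against 3.86%, CCGGAAG of ETS factors in 15.9% against 7.05%, and AAGATGGCG of YY1 in 0 of 69 against 0.607%, both strands searched. Matches may overlap, and some forms of the NRF1 site contain the HIF letters. The window before Ndufv3 held the HIF letters in 2 places and that before Ndufa12 in 0. The line below gives the last 120 bases before the start of Ndufv3 (GRCm38.p6, plus strand, chr17:31519995-31520114), shown because Ndufv3 is the member whose rise in BMDMs involves no such copy, with the HIF letters of either strand in capitals.
Ndufv3: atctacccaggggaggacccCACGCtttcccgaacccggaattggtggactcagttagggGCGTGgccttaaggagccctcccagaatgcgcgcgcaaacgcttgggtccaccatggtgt
These matches describe letters only, and binding was not measured.

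Complex II and the isoforms of complexes IV and V can be followed gene by gene in BMDMs. Sdha, the flavoprotein that oxidizes succinate, was at 236, 229 and 231.8 CPM in WT and at 231.9, 228.8 and 235.3 CPM in BMDMs labelled PHD2cko. The other subunits of complex II had log2 fold changes of -0.11 (Sdhb, the iron-sulfur subunit), 0.044 (Sdhc) and 0.00072 (Sdhd), the latter 2 anchoring the enzyme in the membrane, and each of the 3 had an adjusted p of at least 0.551. Cox7a1, the isoform of heart and skeletal muscle, had few counts, 14, 20 and 18 in WT and 45, 29 and 33 in BMDMs labelled PHD2cko. Its groups did not overlap, but its log2 fold change of 0.99 (SE 0.322) had an adjusted p of 0.0959. Its ubiquitous partner Cox7a2 was at 57.1 ± 1.8 and 60.3 ± 3.39 CPM (SD, n = 3 each). Atp5g1, Atp5g2 and Atp5g3, which encode the same mature ring subunit of complex V, had log2 fold changes of 0.062, 0.045 and -0.090, and 0 of the 3 passed.

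Few of the other genes of mitochondrial respiration passed the test in BMDMs, where 3.38% of all genes were higher and 3.35% lower. Of 13 subunits encoded in mitochondrial DNA, 0 passed the threshold. All 13 had log2 fold changes below 0 (median -0.089), where 47.7% of all genes did, with mt-Atp8 at -0.49 (adjusted p = 0.0592). Of 47 assembly factors 1 rose, Bcs1l, which inserts the iron-sulfur protein into complex III (0.40, adjusted p = 0.00627), and 0 fell. Of 14 regulators 1 rose, Myc (log2 fold change 1.00, adjusted p = 0.0236), although it was at 1.1 to 1.94 CPM in WT and 2.47 to 3.1 CPM in BMDMs labelled PHD2cko. Citrate synthase (Cs) fell by 0.19 (adjusted p = 0.0229), as 1 of 14 genes of the tricarboxylic acid cycle, and Mrpl33 was the 1 of 77 mitochondrial ribosomal protein genes that fell. Of 5 further nuclear subunits and carriers, 0 passed.

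In 3T3, the comparison of media asks whether conditioned medium of PHD2cko BMDMs changed these transcripts in the receiving fibroblasts. With all libraries, 74 of 79 members had a log2 fold change below 0 in PHD2cko medium, where 51.1% of all genes did, and 5 had one above 0, where 48.6% did. The median was -0.17 for complex I, -0.11 for complexes II and III, -0.19 for complex IV and -0.16 for complex V, beside -0.0046 over all genes. Of 79, 7 members fell (8.86%) and 0 rose by edgeR's quasi-likelihood test, where 6.75% of all genes fell and 8.93% rose (15.7% in either direction). At an unadjusted p under 0.05, 24 members were lower and 0 higher, beside 14.4 and 14.8% of all genes, and 11 and 3 without replicate 1 in WT medium, beside 13.1 and 18.5%. With all libraries, in 24 members all 3 libraries in PHD2cko medium lay below those in WT medium, beside 16.5% of all genes.

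The decrease was seen with 1 library of the control group and not without it. Without replicate 1 in WT medium, the median log2 fold change of members was -0.0028, with 39 above and 40 below 0, beside 0.016 over all genes. The medians were then -0.0048 for complex I, -0.023 for complex II, 0.042 for complex III, 0.039 for complex IV and -0.0075 for complex V. In that fit 2 members fell and 1 rose, beside 7.41% and 11.6% of all genes. Leaving out replicate 2 or 3 in WT medium instead gave 15 and 14 members lower, beside 5.4 and 6.46% of all genes. Leaving out a library in PHD2cko medium gave 1 (replicates 1 and 3, beside 3.41 and 3.2%) or 2 (replicate 2, beside 4.8%), and leaving out a BMDM library 3 or 4 (beside 5.47 to 5.7%). Macrophage markers summed to 23.3 to 25.2 CPM in WT medium and to 223 to 1000 CPM in PHD2cko medium, with 22 of 23 higher. With that share of each library subtracted, 73 members were below 0 (median -0.14, and -0.0036 over all genes) and 3 fell, beside 6.51% of all genes. The plot of label effects by complex shows the shift of all 5 medians toward 0.

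**Figure D3:**
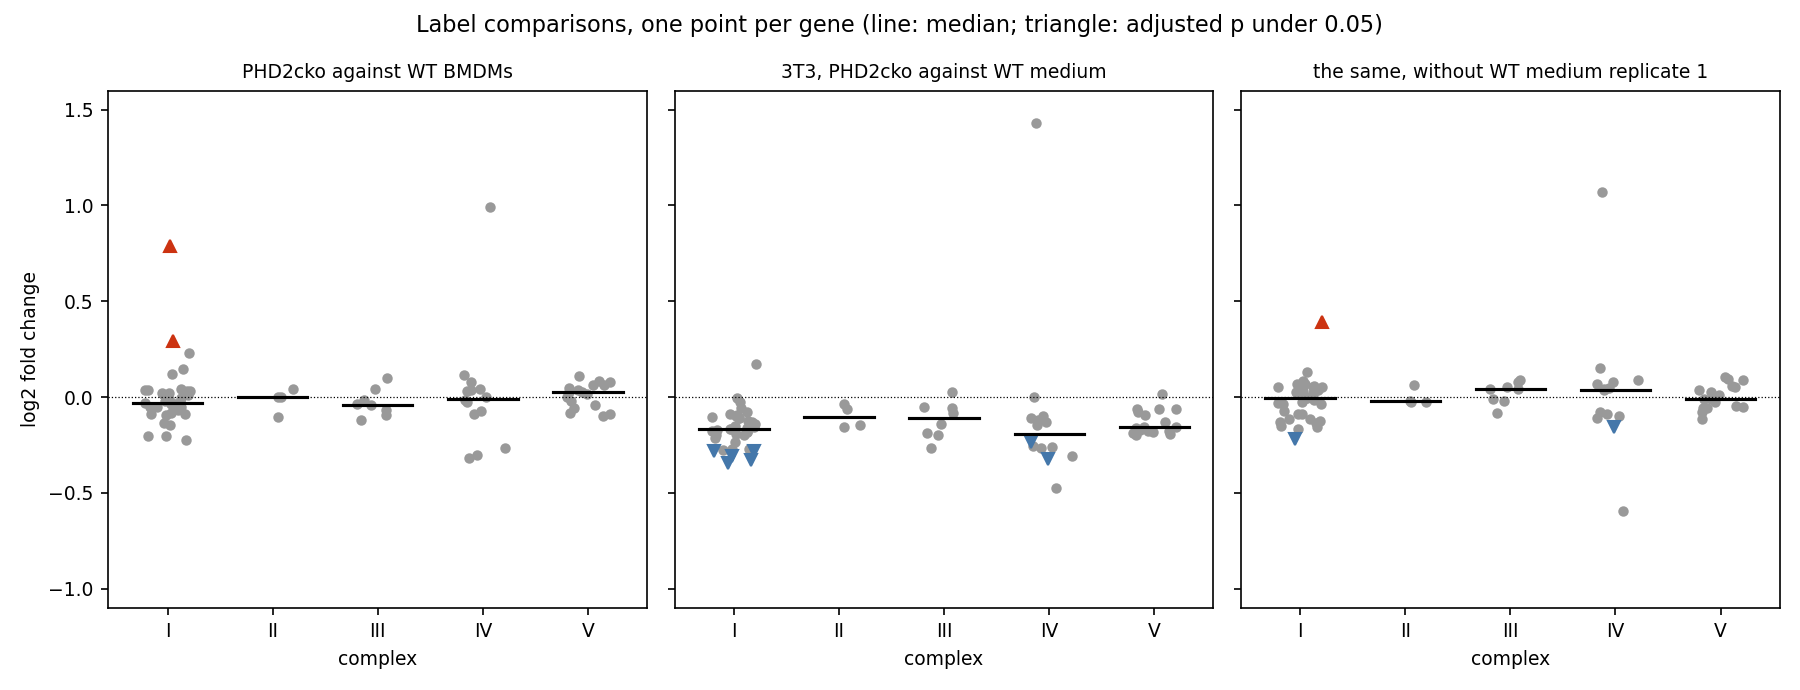
Log2 fold change (vertical axis) of each member by complex (horizontal axis) for BMDM labels, for 3T3 in PHD2cko against WT medium, and for the latter without replicate 1 in WT medium; lines are medians, and triangles mark genes at an adjusted p under 0.05, pointing up for higher and down for lower. In the middle panel 74 of 79 points lie below 0, and in the right panel 40 do.

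That library also differed by transcript length. Measured as the median deviation from the mean of all 6 3T3 libraries on the log2 scale, its genes of the shortest tercile (at most 2158 bases) were at 0.15, those of the longest tercile at -0.14, and the members at 0.32. In the other 3T3 libraries members were at -0.092 to -0.033. Members are short, with a median of 861 bases against 2903 over all genes with a known length, and 72 of 79 fall in the shortest tercile. With the length trend of each library taken out as an offset, an alternative chosen after seeing the data, the median of members was -0.039, with 54 below 0. In that fit 10 members were lower and 1 higher, where 8.27% of all genes were lower and 11.4% higher. Those lower included Ndufa6 (-0.21), Cox7a2l (-0.22), Ndufs8 (-0.20), Ndufb6 (-0.20), Ndufb11 (-0.18), Ndufb10 (-0.15) and Cox4i1 (-0.14), with adjusted p from 0.00111 to 0.0372.

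**Figure D4:**
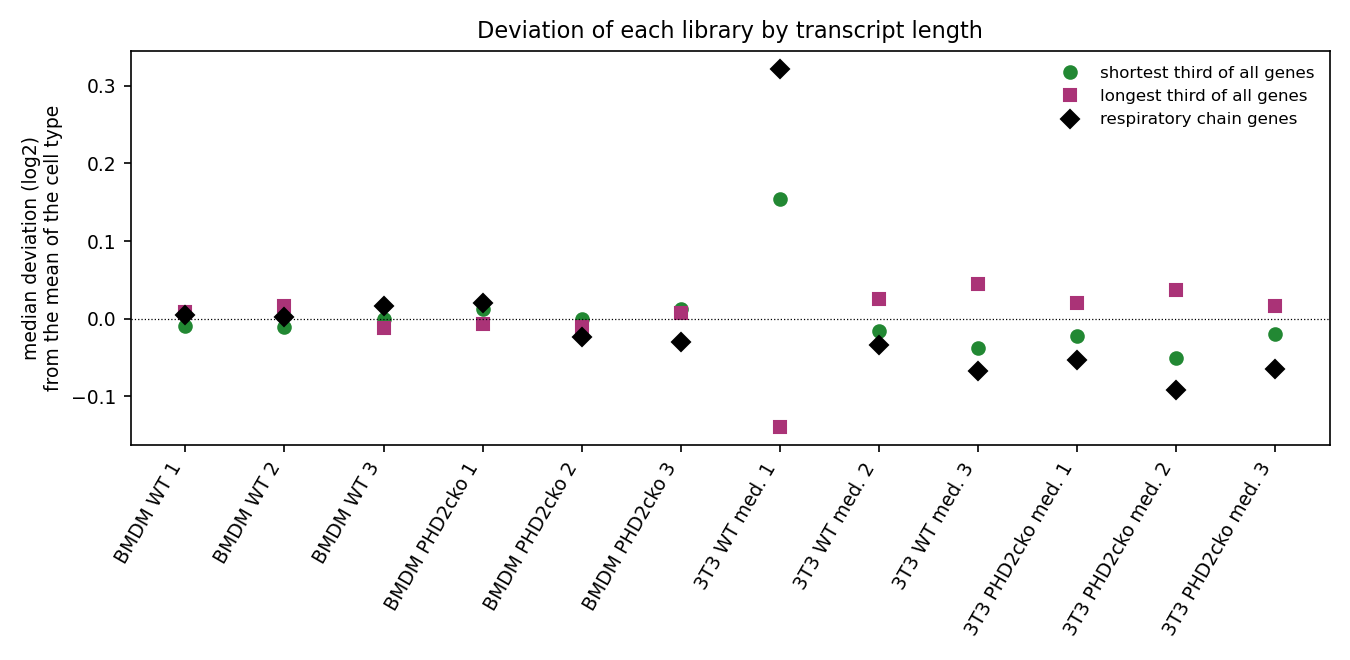
Median deviation (log2, vertical axis) of each library (horizontal axis) from the mean of its cell type for genes of the shortest tercile, genes of the longest tercile and the 79 members. Replicate 1 of 3T3 in WT medium is at 0.15, -0.14 and 0.32, and every other library is within 0.1 of 0 for each of the 3.

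Genes that fell in 3T3 were Ndufa6, Ndufs8, Ndufb6, Ndufb10 and Ndufb11 of complex I, Cox8a of complex IV, and Cox7a2l, counted with complex IV by its symbol. Ndufa6, an accessory subunit of the peripheral arm of complex I, was at 73.2, 59.6 and 59.2 CPM in WT medium and at 51, 50.2 and 49.9 CPM in PHD2cko medium. All 3 libraries in PHD2cko medium lay below those in WT medium, also without replicate 1. Its log2 fold change was -0.34 (SE 0.0721, adjusted p = 0.00675), and -0.22 (SE 0.042, adjusted p = 0.0036) without replicate 1. It passed the threshold without any 1 of the 12 libraries, but not when the 6 3T3 libraries were fitted alone, where 0 members passed.
Cox7a2l, which is no subunit of the enzyme but links complexes III and IV in supercomplexes, was at 234.6, 178.7 and 178.1 CPM in WT medium and at 157.2, 150.9 and 164.6 CPM in PHD2cko medium. Its log2 fold change was -0.32 (adjusted p = 0.0282), and -0.16 (adjusted p = 0.0221) without replicate 1, while its copy Gm6969 was at -0.095 (adjusted p = 0.549). It lost the threshold without any 1 of the 3 libraries in PHD2cko medium (adjusted p = 0.0575 to 0.0823).

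The other 5 did not pass without replicate 1. Ndufs8, an iron-sulfur subunit of the electron path of complex I, was at 64.9, 52.4 and 50.9 CPM in WT medium and at 44.7, 43.8 and 47.3 CPM in PHD2cko medium, and its log2 fold change went from -0.31 (adjusted p = 0.0293) to -0.17 (0.062). Ndufb6, Ndufb10 and Ndufb11, accessory subunits of the membrane arm, went from -0.33, -0.28 and -0.28 (adjusted p = 0.0434 to 0.0479) to -0.16, -0.12 and -0.13 (0.0611 to 0.102). Cox8a, a small subunit of complex IV, went from -0.24 (0.047) to -0.11 (0.0724). Replicate 1 was the highest library of 6 for each of these 5 genes. Ndufb7, of the membrane arm, passed as higher without replicate 1 (log2 fold change 0.39, adjusted p = 0.00448) and with the length offset (0.31, adjusted p = 0.008), but not with all libraries otherwise (0.17, adjusted p = 0.394), with 31.4, 23 and 19.9 CPM in WT medium and 29.9, 25.5 and 28.2 CPM in PHD2cko medium.

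Of 13 subunits encoded in mitochondrial DNA, 4 fell in PHD2cko medium with all libraries and 3 without replicate 1, beside 6.75 and 7.41% of all genes. Together the 13 took up 6.74, 6.72 and 6.57% of counts in WT medium and 5.59, 6.07 and 5.86% in PHD2cko medium, so the groups did not overlap and replicate 1 lay close to replicate 2. All 13 had a log2 fold change below 0, where 51.1% of all genes did. Their median was -0.20, and -0.17 without replicate 1. Those that fell were mt-Co2 (-0.32), mt-Atp6 (-0.29), mt-Co1 (-0.26) and mt-Co3 (-0.24), and mt-Co1, mt-Co2 and mt-Atp6 fell also without replicate 1. The 13 are cut from shared precursor transcripts and are no independent measurements. The difference between them and the nuclear members was not tested.

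Counts of the lists in 3T3 are to be read against 8.93% of all genes that rose and 6.75% that fell. Of 47 assembly factors in 3T3, 2 rose and 2 fell. Ndufaf3 of complex I was at 0.762 to 1.02 CPM in WT medium and at 1.5 to 1.84 CPM in PHD2cko medium (log2 fold change 0.86, adjusted p = 0.00873). Uqcc3 of complex III had a log2 fold change of 0.65 (adjusted p = 0.011). Both were higher in BMDMs than in 3T3, and with the macrophage share of each library subtracted they were at 0.75 and 0.65 and still passed (adjusted p = 0.0222 and 0.0114). Sdhaf3 of complex II (-0.40) and the copper chaperone Cox17 (-0.30) fell, but did not pass without replicate 1 (adjusted p = 0.113 and 0.0947). Of 10 HIF-linked genes acting on mitochondria, Pdk1 (0.38) and Bnip3l (0.20) rose, and Fundc1 (-0.25), a receptor for the removal of mitochondria, fell. Fundc1 did not pass without replicate 1 (adjusted p = 0.0728), whereas Ldha (0.22) and Bnip3 (0.31) did as higher, making 4 of the 10 higher. Among 14 regulators Nrf1 rose (0.16), among 14 genes of the tricarboxylic acid cycle Cs fell (-0.18), and 0 of 77 mitochondrial ribosomal protein genes and 0 of 5 further subunits and carriers passed. With all libraries the ribosomal protein genes were below 0 in 67 of 77, where 51.1% of all genes were. Without replicate 1 they were below 0 in 33, and 1 passed as higher. Without replicate 1, 3 assembly factors passed as higher and 0 as lower, and 1 regulator and 1 gene of the tricarboxylic acid cycle passed in each direction. In that fit 11.6% of all genes were higher and 7.41% lower.

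The effect of the label was compared between cell types by an interaction term. It was above 0 in 14 members and below 0 in 65, where 48.5% of all genes were above and 51.5% below. Without replicate 1 of 3T3 in WT medium it was above 0 in 42 and below 0 in 37 (median 0.012, and 0.015 over all genes), and with the length offset in 37 and 42. Of 79 members, 3 were lower in 3T3 than in BMDMs by this term (3.8%, beside 4.58% of all genes) and 0 higher (beside 7.71%). These were Ndufa12 (difference of log2 fold changes -0.98, adjusted p = 0.000425), Ndufv3 (-0.40, adjusted p = 0.0125) and Ndufa6 (-0.36, adjusted p = 0.0369). With copies added to their genes, the term of Ndufa12 was -0.34 and did not pass (adjusted p = 0.0862). Without replicate 1 in WT medium it was -0.87 for Ndufa12, -0.29 for Ndufv3 and -0.24 for Ndufa6, each past the threshold, and 4 other members passed as higher, beside 10.1% of all genes, namely Ndufa13, Ndufa4, Cox5a and Ndufb7. The term of Ndufa6 passed without 4 of the 12 libraries and lost the threshold without any of the other 8.

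WT BMDMs and 3T3 in WT medium differed far more than the labels did. Cell type, mouse strain, medium and time in culture (24 h against 72 h) differ together between these groups and cannot be told apart. In BMDMs 18 of 79 members were higher (22.8%) and 39 lower (49.4%), where 40.4% of all genes were higher and 44.9% lower (85.3% in either direction). Log2 fold changes were below 0 in 51 members, where 52.5% of all genes were, and groups did not overlap in 13 members that were higher and 38 that were lower, beside 40.4 and 44.8% of all genes. Complex II stood on the other side from complex I, with 4 of 4 genes higher and a median log2 fold change of 0.67, against -0.29 for complex I (4 higher and 19 lower of 36). The medians were -0.040 for complex III, -0.13 for complex IV and -0.19 for complex V, beside -0.081 over all genes. With Ndufa4 counted in complex IV and symbols of no subunit left out, the median of complex IV was -0.26. Without replicate 1 of 3T3 they were 0.71 for complex II, -0.18 for complex I, 0.10 for complex III, 0.0092 for complex IV and -0.078 for complex V, with 29 members higher and 34 lower, where 40.6 and 45.3% of all genes were. On total counts, without normalization factors, the median of all genes moved from -0.081 to -0.35, complex II was at 0.40 and complex I at -0.56.

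**Figure D5:**
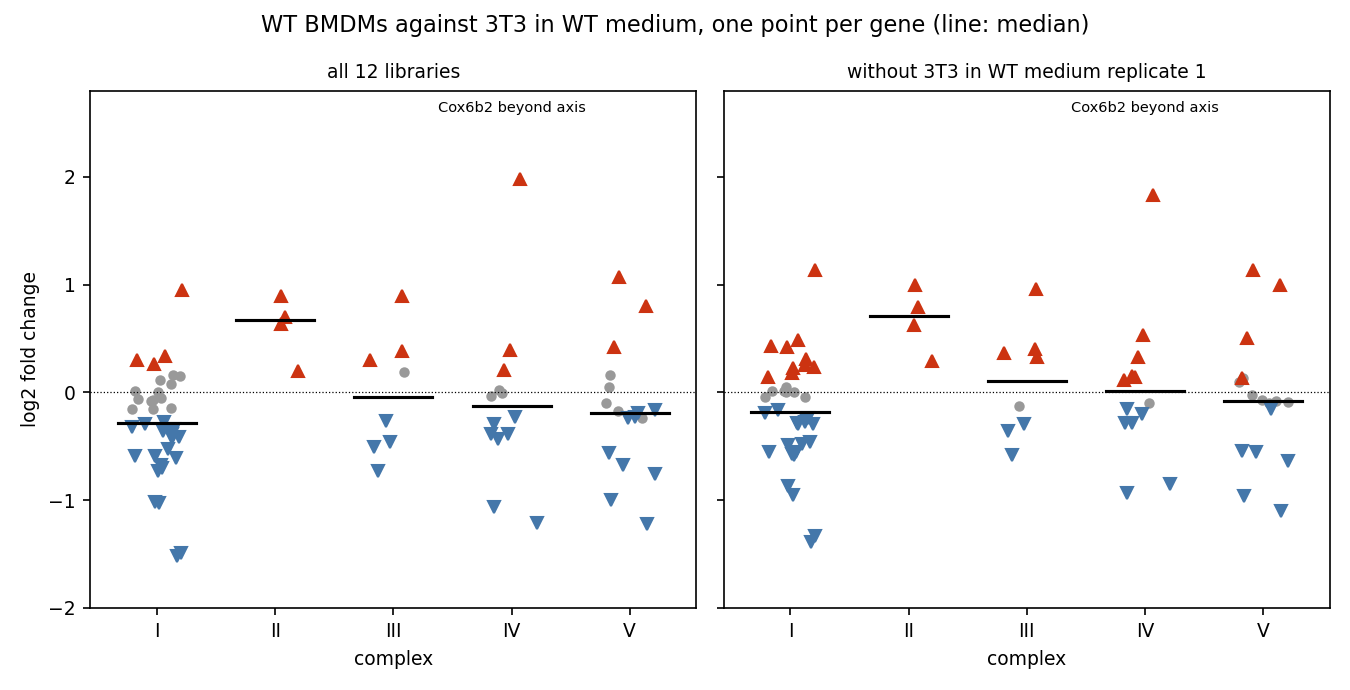
Log2 fold change (vertical axis) of WT BMDMs against 3T3 in WT medium for each member by complex (horizontal axis), with all libraries and without replicate 1 of 3T3; lines are medians and triangles mark an adjusted p under 0.05, pointing up for higher and down for lower. All 4 points of complex II lie above 0 in both panels, and Cox6b2, with 0, 0 and 1 counts in 3T3, lies beyond the axis.

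Succinate dehydrogenase was higher in BMDMs gene by gene. Sdhb was at 114.3, 112.2 and 113.7 CPM in WT BMDMs and at 70.3, 57.2 and 55.9 CPM in 3T3 (log2 fold change 0.89, adjusted p = 1.55e-07). Sdhd was at 96.2, 99.3 and 100.5 CPM against 69.5, 57.8 and 55.5 CPM (0.70, adjusted p = 4.64e-07). Sdha was at 236, 229 and 231.8 against 148.6, 151.4 and 148.6 CPM (0.64, adjusted p = 3.29e-09), and it was level across the 3 3T3 libraries. For these 3 genes the groups did not overlap, and the difference passed without any 1 library. Sdhc overlapped, with 109.1, 114.4 and 116.5 against 112.4, 92.4 and 91.5 CPM. Its log2 fold change of 0.20 (adjusted p = 0.0195) turned to -0.070 on total counts, and it did not pass with a minimum of 10 counts in every library (adjusted p = 0.0731), without BMDM WT replicate 3 (adjusted p = 0.0624) or without replicate 2 (0.0895) or 3 (0.0846) in WT medium. Per length, Sdha, Sdhb and Sdhd were at 80.1 ± 1.23, 99.3 ± 0.961 and 80.2 ± 1.81 CPM per kb in WT BMDMs and Sdhc at 35.7 ± 1.21 CPM per kb (SD, n = 3 each). Sdha and Sdhd did not differ beyond their spread. Sdhc has an annotated transcript of 3171 bases, and shorter forms would raise its value.

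The largest differences the other way were in Ndufa4, Ndufa5 and Atp5g1. Ndufa4 was at 55.4, 55.2 and 57.9 CPM in WT BMDMs and at 192.6, 149.8 and 141.4 CPM in 3T3 (log2 fold change -1.52, adjusted p = 3.49e-09). Ndufa5, of the peripheral arm of complex I, was at 12.5, 13.4 and 12.9 against 44.8, 33.2 and 31 CPM (-1.49). Atp5g1 was at 44.9, 42.8 and 45.1 against 120.7, 93.4 and 95.8 CPM (-1.22). For these 3 genes all BMDM libraries lay below all 3T3 libraries, and without replicate 1 of 3T3 the differences were -1.39, -1.33 and -1.1. Atp5g2 and Atp5g3 were lower as well (-0.56 and -0.76).

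Some isoforms known from muscle or testis were seen at low levels and differed between the cell types. Cox6b2, known from testis, had 11, 13 and 10 counts in WT BMDMs and 0, 0 and 1 in 3T3 in WT medium, too few in 3T3 for the size of its difference to be read. Cox7a1 had 14, 20 and 18 counts against 4, 11 and 3, a log2 fold change of 1.98 (adjusted p = 0.00055). Cox6a2, of heart and skeletal muscle, went the other way, with 11, 12 and 6 counts against 41, 34 and 17 (log2 fold change -1.21, adjusted p = 0.00544). Their ubiquitous partners were far higher. Per length, Cox6a1 was at 155 ± 3.83 CPM per kb in WT BMDMs against 0.885 ± 0.302 for Cox6a2, Cox6b1 at 170 ± 5.66 against 1.2 ± 0.153 for Cox6b2, and Cox7a2 at 86.6 ± 2.73 against 2.73 ± 0.388 for Cox7a1. Cox8a was seen without Cox8b (at most 1 count in a library) or Cox8c (0 counts in all 12 libraries, which allows up to 0.188 CPM in BMDMs and 0.193 CPM in 3T3). Cox4i1 did not pass with all libraries (-0.0025, adjusted p = 0.981), was lower in BMDMs on total counts (-0.27, adjusted p = 0.0118) and was higher without replicate 1 (0.14, adjusted p = 0.00253). Atp5sl, named for ATP synthase but known for the assembly of complex I, followed Cox6b2 and Cox7a1 in order of the differences toward BMDMs (log2 fold change 1.07).

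Within both cell types members spanned a wide range per length. In WT BMDMs Cox4i1 led with 396 ± 6.72 CPM per kb, followed by Cox7a2l at 240 ± 3.4 and Atp5b, the catalytic subunit of ATP synthase, at 233 ± 1.13. In 3T3 in WT medium Atp5b was at 467 ± 26 and Cox4i1 at 397 ± 69.7, whose ranges of mean ± SD touch (SD, n = 3 each), but without replicate 1 Atp5b was at 450 and 454 and Cox4i1 at 355 and 358 CPM per kb. Subunits encoded in mitochondrial DNA were lower in BMDMs as a group, with 13 of 13 past the threshold and a median log2 fold change of -0.89, and -0.92 without replicate 1 of 3T3. They made up 3.3 to 3.41% of counts in WT BMDMs and 6.57 to 6.74% in 3T3 in WT medium. Of the other lists, 12 assembly factors were higher in WT BMDMs and 26 lower of 47, 4 and 10 of 14 genes of the tricarboxylic acid cycle, 11 and 42 of 77 mitochondrial ribosomal protein genes, 5 and 6 of 14 regulators, 5 and 1 of 10 HIF-linked genes acting on mitochondria, and 1 and 4 of 5 further subunits and carriers. Without replicate 1 of 3T3 in WT medium these counts were 12 and 25, 4 and 10, 20 and 40, 4 and 6, 6 and 1, and 1 and 4. The counts of all these lists, with the 13 of 13 above, are to be read against all genes. Of these 40.4% were higher and 44.9% lower, and 40.6 and 45.3% without replicate 1.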

How the data were processed

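RNA of 12 libraries had been sequenced in single reads. The authors deposited estimated counts per gene, made with Kallisto (version, annotation and strand setting not given in the sources used here) on GRCm38 and summed to genes without normalization. The deposited values are whole numbers, and 0 columns could not be mapped. Kallisto divides reads that fit several transcripts by estimation, which matters for genes with near-identical copies.

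Groups came from the sample titles. A part of the genetic background that both BMDM groups share is not reported here. Genes were kept by filterByExpr (14285 of 32544), normalized by TMM and tested two-sided in all 12 libraries together with the quasi-likelihood test of edgeR 4.0.16 in R 4.3.3, with p-values adjusted after Benjamini and Hochberg across the kept genes (threshold 0.05). CPM are over effective library sizes, and CPM per kb divide by the principal GENCODE M21 transcript. limma 3.58.1 (voom) and DESeq2 1.42.0 were alternatives, as were other scalings and filters, added copies, a length offset and each library left out. Symbols were matched to GENCODE M21 directly (31468), by an older symbol (522) or not at all (554). Members and lists were chosen with earlier results of these data known, so no list is independent support. Named were members past the threshold, isoform pairs, complex II and the 3 largest differences per direction between cell types, and of other lists at most 4 examples each. Cox5a, Ndufa13 and Ndufb7, and the levels per length, were added after their values were seen.

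Copies were pseudogenes sharing at least 50% of their own 31-base stretches with a member. The macrophage share was the summed CPM of 23 markers over that in BMDMs. In simulated BMDM data, 20, 39, 48 and 49 of 50 genes changed 1.25-, 1.5-, 2- and 4-fold were found, with 7 false calls among 163, and in simulated 3T3 data 22, 40, 48 and 50, with 7 among 167. Simulated counts varied independently between genes, and changes were placed only in genes above a minimum of expected counts. No simulated library was shifted as a whole, as replicate 1 of 3T3 in WT medium was. These rates therefore do not cover such a shift. A floor of 3 counts covers counting error only.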

Additional observations from a re-analysis of the deposited data

Results flagged for a closer look

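The effect of the label differed between 3T3 and BMDMs for 3 members and 9 genes of the lists other than cell markers. The test was the interaction term of edgeR with Benjamini-Hochberg adjustment over all genes. Of 79 members 3.8% passed, where 12.3% of all genes did in either direction. The list genes were 3 of 10 HIF-linked genes, 3 lower and 1 higher of 47 assembly factors, 1 of 14 regulators and 1 of 14 genes of the tricarboxylic acid cycle. Values are log2 fold changes in 3T3 minus those in BMDMs. For the members the term was -0.98 for Ndufa12 (0.79 in BMDMs and -0.19 in 3T3), -0.40 for Ndufv3 (0.29 and -0.11) and -0.36 for Ndufa6 (0.019 and -0.34). Among HIF-linked genes acting on mitochondria it was -0.64 for Bnip3 (0.85 and 0.21), -0.58 for Pdk1 (0.96 and 0.38) and -0.44 for Ldha (0.56 and 0.12). Among assembly factors it was -0.37 for Bcs1l (0.40 and 0.035), -0.64 for Sdhaf3 (0.24 and -0.40), -0.57 for Sdhaf1 (0.30 and -0.27) and 0.92 for Ndufaf3 (-0.058 and 0.86), of which Ndufaf3 is more abundant in BMDMs and 3T3 in PHD2cko medium held macrophage markers. For the regulator Myc it was -1.17 (1.00 and -0.18), at low counts in BMDMs, and for Fh1 of the tricarboxylic acid cycle 0.28 (-0.17 and 0.11). Without replicate 1 of 3T3 in WT medium these terms kept their direction, and Bcs1l (-0.33, adjusted p = 0.0613) and Sdhaf3 (-0.55, adjusted p = 0.059) did not pass. The part of copies in the value of Ndufa12 and of macrophage RNA in that of Ndufaf3 was not tested beyond the alternatives given.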

How the results depend on the processing

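With the replicate number as a block, 2 members were higher and 0 lower in BMDMs (2.77 and 2.94% of all genes), and 0 and 6 in 3T3 (7.81 and 5.86%), and complex II was at 0.67 between cell types. The numbers do not pair the libraries (correlations of same-numbered libraries from -0.0497 to 0.0242, 0 of 6 over 0.1, and 1 best with its own number). Of members in BMDMs, 1 was lower with DESeq2's Wald test, with at least 10 counts in every library and with no filter beyond 1 count (4.19, 4.36 and 1.99% of all genes), 3 with the length offset (5.4% of all genes), and 6 lower and 4 higher in the 6 BMDM libraries alone (10.8 and 9.79%), and 1 was higher with copies added (3.4%). In 3T3, 3 members were lower with DESeq2 size factors, with total counts and with the macrophage share subtracted, (beside 5.94, 4.62 and 6.51% of all genes), and 0 in the 6 3T3 libraries alone (2.59%). With the length offset 1 was higher in 3T3 (11.4%), 4 were higher by the interaction term (9.75%), and the 3T3 medians were -0.058, -0.039, 0.017, -0.0685 and -0.037 for complexes I to V. Between cell types, total counts gave 11 members higher (33.1%), medians of -0.56, 0.40, -0.31, -0.40 and -0.46 for complexes I to V, and turned Cox7a2 (-0.25), Ndufb11 (-0.25) and Sdhc (-0.070). With each library left out, Cox4i1 ran from -0.0783 to 0.142 and Cox6b1 from -0.116 to 0.118, both turning without replicate 1 in WT medium. Between cell types, complex IV was at -0.26 with Ndufa4 counted in it and symbols of no subunit left out. It was at -0.29 with at least 10 counts in every library.

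With each library left out in turn, 1 to 3 members were higher and 0 to 4 lower in BMDMs, 0 to 1 and 1 to 15 in 3T3, 13 to 29 and 34 to 42 between cell types, and 0 to 4 and 2 to 6 by the interaction term. Of all genes, 1.8 to 6.35% were higher and 1.83 to 6.69% lower in BMDMs in these fits, 5.5 to 11.6 and 3.2 to 7.41% in 3T3, 38.9 to 40.6 and 43.4 to 45.3% between cell types, and 5.64 to 10.1 and 3.08 to 5.86% by the interaction term. The 3T3 medians ran from -0.233 to -0.00484 for complex I, -0.16 to -0.0225 for II, -0.188 to 0.042 for III, -0.258 to 0.039 for IV and -0.213 to -0.00752 for V, and those between cell types from -0.326 to -0.179, 0.632 to 0.705, -0.123 to 0.102, -0.215 to 0.00921 and -0.263 to -0.0776. Where a library left out gave the value nearest to or past 0 in 3T3, it was replicate 1 in WT medium. The cause of the other changes was not tested. Isoforms with few counts, such as Cox6b2, are limited by depth.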
